A study of Mus musculus with 6 samples.

Results

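The suppressor of cytokine signaling (SOCS) family comprises 8 genes, Cish and Socs1 to Socs7, whose products restrain signaling by Janus kinases (JAK) and signal transducers and activators of transcription (STAT). Open chromatin at these genes was taken from a peak list of mouse kidney nuclei profiled by ATAC-seq, an assay in which the Tn5 transposase cuts and tags accessible DNA. Intervals of the list were assigned to a gene where they overlapped the stretch from 3 kb upstream of the gene record to its end in GENCODE M39, on the mouse assembly GRCm39. This rule gave 100 of the 279569 intervals to the 8 genes, out of 21757 protein-coding genes examined in the same way.

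The 6 libraries mapped here came from kidney cortex. By their labels they were WT (n = 3) or tubule-specific Acly knockout, here Acly cKO (n = 3). The paper's general methods describe controls as Cre-negative Acly fl/fl littermates, which the labels of these libraries do not state. Acly cKO mice carried floxed alleles of Acly, the gene of ATP citrate lyase, together with Ksp-Cre. Ksp-Cre is driven by the Cdh16 promoter and recombines in tubule epithelium, so glomerular, vascular, stromal and immune cells of Acly cKO kidneys keep the gene. Both genotypes carried the treatment label Control, and no age is given for these libraries in their labels. The study's methods count more WT libraries, deposited earlier. Whether these entered the pooled peak call described next is not shown by the files, so they may contribute to every fold enrichment given here. By their labels, batches 1 and 2 hold WT libraries alone and batches 4 and 5 Acly cKO libraries alone. Effects of batch and of genotype therefore cannot be told apart. The authors made 1 peak call, which by its peak names pools all libraries. Because it holds no column for a single library, the genotypes could not be set against each other, sequencing depth per library is not known, and the values below have neither a replicate error nor a test. In a pool from whole cortex, openness in many cells and stronger openness in few cells cannot be told apart.

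When a cytokine binds its receptor, JAK kinases on the receptor tails phosphorylate STAT factors, which enter the nucleus and bind DNA. Several SOCS genes are themselves STAT targets, and their products feed back on the pathway. Each protein has a central SH2 domain, which binds phosphotyrosine, and a C-terminal SOCS box, which recruits elongins B and C and cullin 5 to mark bound proteins for degradation. SOCS1 and SOCS3 can in addition block JAK catalytic activity. In the kidney, tubule cells receive signals of this kind from interferons, IL-6 family cytokines and growth hormone.

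STAT dimers generally recognise the palindrome TTCNNNGAA, where N is any base. The places where it occurred nearest to the strongest openness or the start site of a SOCS gene are shown first, because the results return to them. Sequences are from GRCm39, on the strand of the gene, 5′ to 3′, with matches in capitals. Positions count from 0 at the first base of the Ensembl canonical transcript, and negative positions lie upstream. The first stretch of Cish, at chr9:107173853-107173882, begins at position 628. The second, at chr9:107173961-107173990, begins at position 736. The Socs2 stretch, at chr10:95252761-95252790, begins at position 182. The stretches of Socs3 begin at position -233 (chr11:117860327-117860356) and at position 40 (chr11:117860054-117860083). The Socs1 stretch, at chr16:10603834-10603863, begins at position 12.
Cish, first pair: cagttTTCCTGGAAagTTCTTGGAAatctg
Cish, second pair: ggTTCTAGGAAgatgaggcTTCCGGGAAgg
Socs2, pair: gcggaTTCCTGGAAagTTCCTGGAAagcgg
Socs3, upstream: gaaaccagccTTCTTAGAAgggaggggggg
Socs3, downstream: ggccgggcagTTCCAGGAAtcggggggcgg
Socs1: gctagccgggTTCCAAGAAgggtcgagatt

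All 8 genes had open chromatin at the start site. A start-site interval, the strongest interval within 1 kb of the canonical start, was present at 8 of 8 members and at 75.8% of protein-coding genes. It covered the first base of the transcript at 8 of 8 members and at 71.2% of protein-coding genes. At least 1 interval anywhere in the assigned stretch was present at 8 of 8 members and at 83.2% of protein-coding genes. The start-site interval was the strongest of its gene at 8 of 8 members, against 76.9% of protein-coding genes that had one. The strength of an interval is given as the fold enrichment at its highest summit over the peak caller's background, with the -log10 q that the caller attached to that summit.

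The fold enrichment of the start-site interval lay above the median of all 16499 protein-coding start-site intervals, 30.05-fold, at 8 of 8 members, where 49.9% of these intervals lay above it. Here and below, start-site intervals are counted per gene, so an interval shared by neighbouring genes counts for each of them. The median of the members was 46.22-fold, and 72.7% of protein-coding start-site intervals were lower. The order from strongest to weakest was Socs5, Socs6, Socs4, Socs3, Cish, Socs1, Socs7 and Socs2. Without replicates, the spread that would separate neighbours in this order is unknown.

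**Figure D1:**
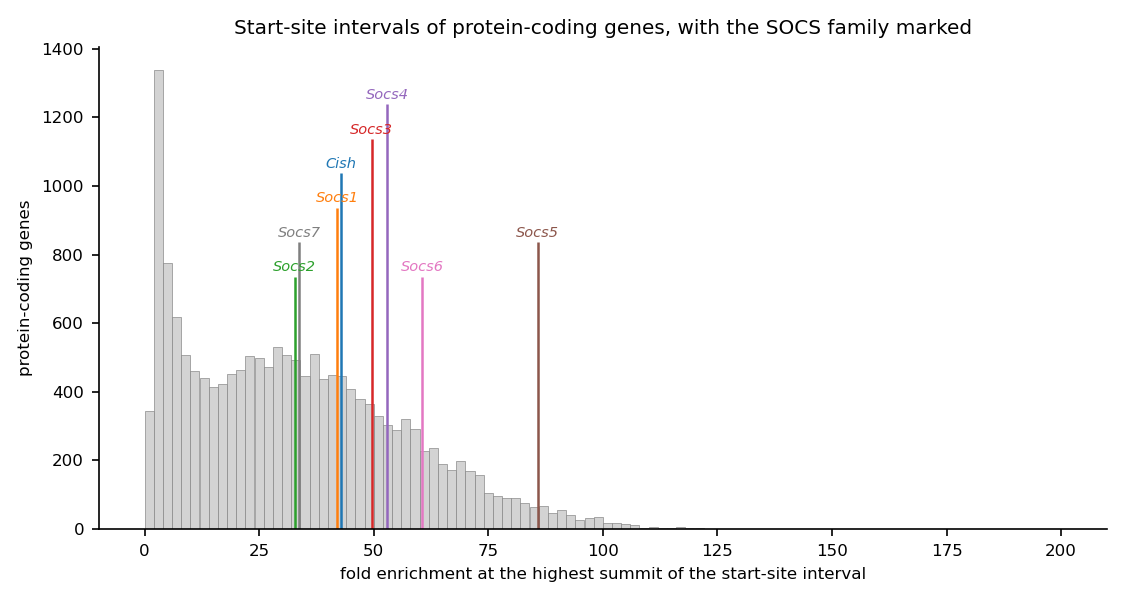
Histogram of the fold enrichment at the highest summit of the start-site interval for 16499 protein-coding genes (x axis, fold; y axis, number of genes per 2-fold bin), with a coloured line at each SOCS gene whose height has no meaning. The 8 lines lie between 32.8-fold for Socs2 and 85.8-fold for Socs5, above the median of 30.05-fold.

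Cish and Socs1 to Socs3 are the members best known as cytokine-induced feedback genes. Cish encodes CIS, which binds receptor tails used by STAT5. Its start-site interval, chr9:107172556-107179018, reached 42.9-fold with a -log10 q of 809. The highest summit lay at position 599, in the 5′ UTR of exon 1, and 68.38% of protein-coding start-site intervals were weaker. Socs1, an inhibitor of interferon signaling, reached 42.1-fold with a -log10 q of 789 in the interval chr16:10599472-10605732. Its highest summit, at position 495, was also in the 5′ UTR of exon 1. Of protein-coding start-site intervals, 67.28% were weaker than that of Socs1, so the values of these genes lay close together.

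Socs2, a brake on growth hormone receptor signaling, had the lowest value of the family, 32.8-fold with a -log10 q of 562 in chr10:95249048-95255427. Its highest summit was at position 281, and 54.28% of protein-coding start-site intervals were weaker. Socs3, which limits signaling by gp130, the shared receptor subunit of the IL-6 family, reached 49.6-fold with a -log10 q of 981 in chr11:117857037-117862361. Its highest summit was at position -33, just upstream of the transcript, and 76.36% of protein-coding start-site intervals were weaker.

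Socs4 to Socs7 have longer N-terminal regions and are linked more to receptor tyrosine kinases than to cytokine feedback. Socs5 had the strongest start-site interval of the family, 85.8-fold with a -log10 q of 2006 in chr17:87411576-87416680. Its highest summit was at position -201, and 97.57% of protein-coding start-site intervals were weaker. Socs6, whose product binds activated receptor kinases, reached 60.6-fold with a -log10 q of 1278 and its highest summit at position 44, and 86.57% were weaker. The SOCS family's only start site above the 90th percentile, 65.67-fold, was that of Socs5.

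Socs4, whose product acts on the epidermal growth factor receptor as that of Socs5 does, reached 52.9-fold with a -log10 q of 1070 in chr14:47512960-47515388, with its highest summit at position 72. Of protein-coding start-site intervals, 79.66% were weaker. Socs7, linked to insulin signaling, reached 33.8-fold with a -log10 q of 585 in chr11:97252400-97255325. Its highest summit was at position 1, and 55.66% were weaker. The range of Socs4 to Socs7, 33.78-fold to 85.77-fold, overlapped that of Cish and Socs1 to Socs3, 32.8-fold to 49.56-fold.

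The start-site intervals also differed in shape. The start-site interval was at least 5 kb wide at 6 of 8 members and at 21.8% of protein-coding genes with one. The widest were Cish with 6463 bp, Socs2 with 6380 bp, Socs1 with 6261 bp, Socs6 with 5488 bp, Socs3 with 5325 bp and Socs5 with 5105 bp. Socs7 with 2926 bp and Socs4 with 2429 bp lay under the protein-coding median of 2955 bp. The number of summits ran from 3 at Socs4 and 6 at Socs7 to 18 at Cish, with a protein-coding median of 6.

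At Socs2, 10 of the 16 summits reached 10-fold, from 16.8-fold at position -1743 to 12.4-fold at position 2654. At Socs1, 5 of 15 summits did, in a run from 21.1-fold at position -500 over 24.2-fold at -53, 28.1-fold at 161 and 42.1-fold at 495 to 32.4-fold at 749. At Cish, 5 of 18 summits did, and the second highest, 14.4-fold, lay at position 2193 in intron 1. A protein-coding start-site interval had a median of 1 summit of this height, so openness at these 3 genes was spread over several strong summits.

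Socs4 and Socs5 had the opposite profile, with 1 summit of at least 10-fold each. The highest summit of Socs4 was 21.3 times its second highest, which reached 2.49-fold. At Socs5 the ratio was 21.1, with a second summit of 4.06-fold at position -1390. These ratios exceeded those of 98.13% and 98.07% of the 14946 protein-coding start-site intervals that had more than 1 summit, whose median was 2.028. The wide Socs5 interval therefore consisted of a single strong summit with weak ones on either side.

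Socs6 and Socs7 each had 2 strong summits close together. At Socs6 they were 60.6-fold at position 44 and 46.3-fold at position 333, a ratio of 1.31. At Socs7 they were 33.8-fold at position 1 and 31.2-fold at position 159, a ratio of 1.08. Socs3 was intermediate, with 49.6-fold at position -33, 18.8-fold at position -704 and 8.77-fold at position 800.

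**Figure D2:**
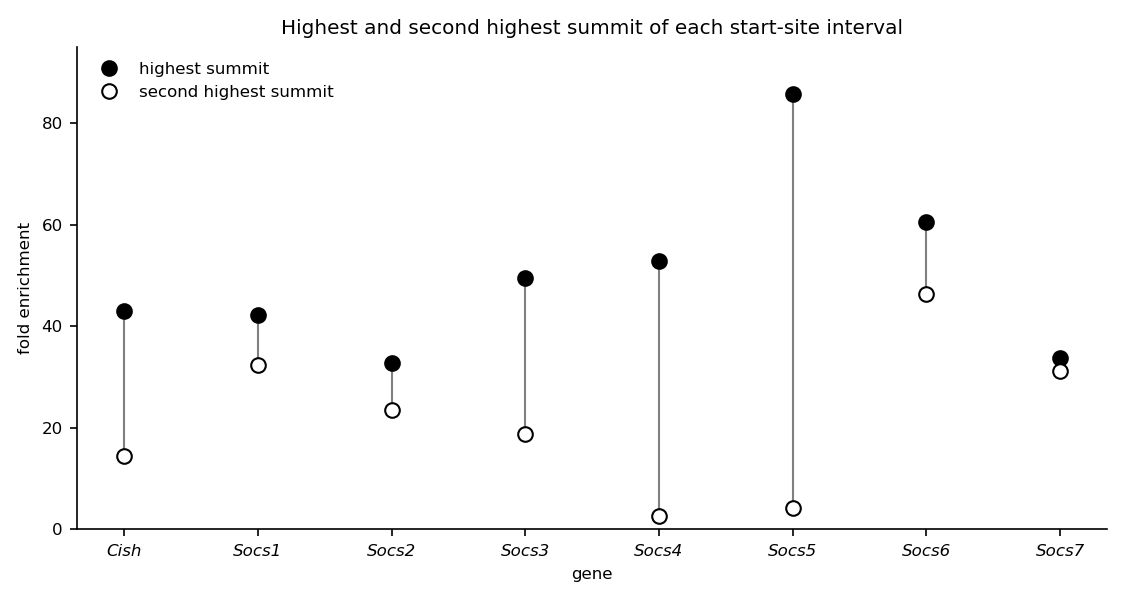
Fold enrichment (y axis) of the highest summit (filled circle) and the second highest summit (open circle) of the start-site interval of each SOCS gene (x axis); grey lines join the 2 values. The gap is widest at Socs5, from 85.8-fold to 4.06-fold, and narrowest at Socs7, from 33.8-fold to 31.2-fold.

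**Figure D3:**
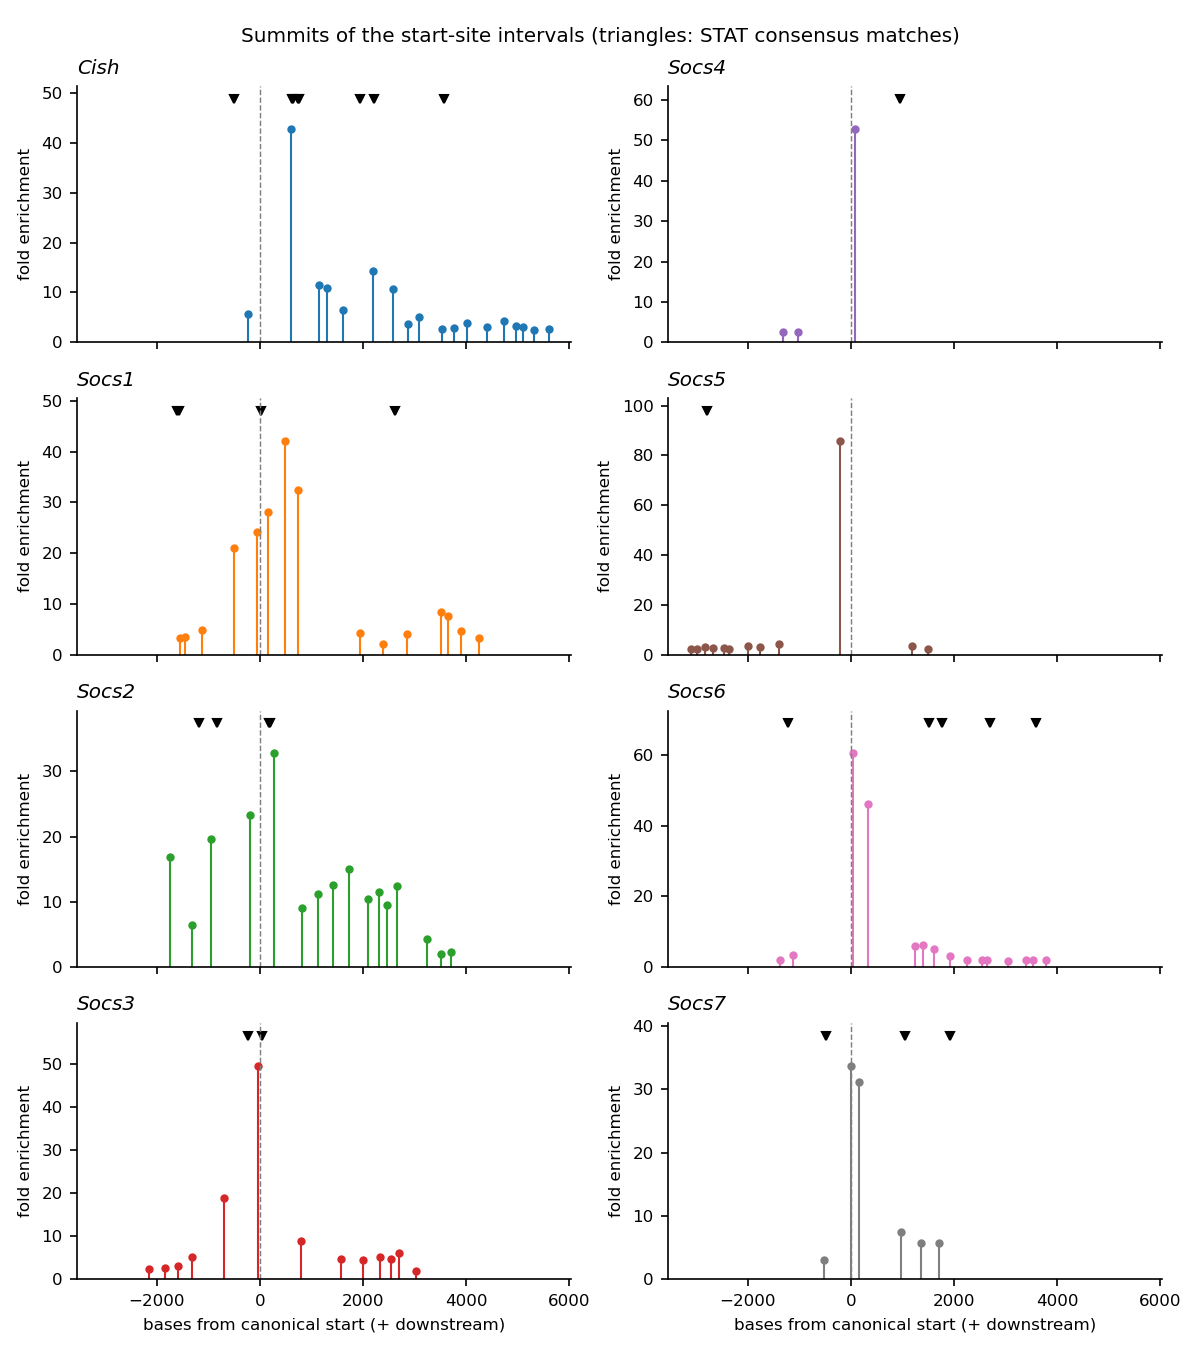
All summits of the 8 start-site intervals, plotted as fold enrichment (y axis, scaled per gene) against bases from the canonical start (x axis, positive downstream, dashed line at 0); black triangles at the top mark TTCNNNGAA matches at the position of their first base. Cish, Socs1 and Socs2 show several strong summits, Socs4 and Socs5 a single one, and triangles stand beside the highest summit at Cish, Socs2 and Socs3.

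The STAT palindrome occurred in the start-site interval at 8 of 8 members, against 55.3% of protein-coding genes with such an interval. Since 6 of the 8 intervals were wide, and wide intervals hold more sequence, this share was read per length as well. Matches ran from 0.196 per kb at Socs5 to 1.24 per kb at Cish, with a protein-coding median of 0.186 per kb. That median includes intervals with no match. Socs3, Socs4 and Socs5 lay under the protein-coding upper quartile of 0.424 per kb, and the other members lay above it. In total there were 28 matches, with 8 at Cish, 5 at Socs6, 4 each at Socs1 and Socs2, 3 at Socs7, 2 at Socs3 and 1 each at Socs4 and Socs5. In the 300 bases from 250 before to 50 after the canonical start, 2 of 8 members, Socs1 and Socs3, had a match, against 8.82% of protein-coding genes.

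Matches lay near the highest summit at 3 members. Of the 28 matches, 8 (28.57%) were centred within 200 bases of the highest summit, against 8.07% of all matches in protein-coding start-site intervals. These belonged to Cish, Socs2 and Socs3, and 3 of 8 members had at least 1 such match, against 8.01% of protein-coding start-site intervals. Within 100 bases of the summit, 3 of 8 members had a match, against 3.94%. The other 5 genes, Socs1 and Socs4 to Socs7, had none within 200 bases, although Socs1 had its match at position 22 at 79 bases from a further summit of 24.2-fold. A match is a run of letters, and binding by a STAT factor was not measured here.

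Counts of clustered matches were made after the positions had been seen and are given as a description. All 3 genes had at least 2 matches within 200 bases of the highest summit, as did 0.521% of protein-coding start-site intervals, which are 86 genes. Within 100 bases, Cish and Socs2 kept at least 2, as did 0.164%, or 27 genes. At Cish, 4 matches followed the summit at position 599 by 38, 49, 143 and 160 bases, at positions 633, 644, 738 and 755. At Socs2, the pair at positions 187 and 198 preceded the summit at position 281 by 90 and 79 bases. At Socs3, TTCCAGGAA at position 50 lay 87 bases and TTCTTAGAA at position -223 lay 186 bases from the summit.

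The first Cish pair and the Socs2 pair had the same arrangement. In both, the matches began 11 bases apart with the letters ag between them, and the first match was TTCCTGGAA. The second match was TTCTTGGAA at Cish and TTCCTGGAA at Socs2. Neighbouring matches 11 bases apart occurred in the start-site interval at 2 of 8 members and at 0.0909% of protein-coding genes with such an interval, 15 genes in all. Of these 15 genes, the 2 with at least 2 matches within 200 bases of the highest summit were Cish and Socs2. The second Cish pair began 17 bases apart.

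At least 4 matches beginning within 150 bases were found at 1 of 8 members, Cish, and at 0.0182% of protein-coding start-site intervals. The other 2 genes with such a cluster, named after their values were seen, were Bcl6, a transcriptional repressor that is a known STAT target, and Resf1. At Bcl6, whose start-site interval reached 29.2-fold, 4 matches lay within 200 bases of the highest summit, and at Resf1, with 43.1-fold, 0 did.

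The remaining matches stood apart from the highest summits. In Cish, TTCTTGGAA at position 2215 in intron 1 lay 26 bases from the summit of 14.4-fold, and the same letters occurred in Socs7 at position -486, 44 bases from a summit of 2.95-fold. The single match of Socs5, TTCAATGAA at position -2793, lay 30 bases from a summit of 3.01-fold, and the single match of Socs4, TTCTAAGAA at position 952, lay 884 bases from its only strong summit. The 91 intervals outside 1 kb of the start sites held 22 further matches.

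The sequence at the start sites set Cish apart from the rest of the family. In the 300 bases at the canonical start, GC content was between 62.67% and 72.33% at Socs1 to Socs7 and 46.67% at Cish, with a protein-coding median of 54.33%. A GC box (GGGCGG on either strand), the letters recognised by SP1 and related factors, occurred at 7 of 8 members, all but Cish, and at 42.5% of protein-coding genes. A ratio of observed to expected CpG of at least 0.6 was reached by 4 of 8 members, Socs1, Socs3, Socs4 and Socs7, and by 43.3% of protein-coding genes. The ratio was highest at Socs4 with 0.952 and lowest at Cish with 0.246. A TATA box (TATAAA on either strand) was found at 0 of 8 members and at 13.2% of protein-coding genes. The median and shares of this paragraph were taken over all 21757 protein-coding genes, with or without a start-site interval. All members had such an interval, and a comparison limited to genes with one was not made.

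The value for Cish depends on which transcript start is used. The RefSeq start of Cish, matched on GRCm39 by its promoter sequence from the RefSeq table on GRCm38, lay at position 633, 34 bases from the highest summit and on the first base of the first match. In the 300 bases around that start, GC content was 53.33% and the CpG ratio 0.521. At Socs1 the RefSeq start lay at position 475, 20 bases from the highest summit at 495. RefSeq starts matched for 4 of 8 members, and those of Socs3 and Socs4 lay at positions -69 and 9. The distance from the highest summit to the GENCODE start, with a protein-coding median of 98 bases, was thus larger at Cish (599) and Socs1 (495) than the distance to the RefSeq start.

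Most annotated starts of the family fell into the start-site intervals. Of 106 member transcripts, 97 began in the start-site interval, 1 in another interval and 8 in none, so 92.45% began in an interval, against 84.29% of all transcripts of protein-coding genes. All transcripts of Socs1, Socs3, Socs4, Socs5 and Cish began in the start-site interval. Socs2, with 52 annotated transcripts, had 48 that did. At Socs6, the starts farthest upstream, at positions -33140 and -33110, had no interval within 1 kb.

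An annotated start on the opposite strand lay within 1 kb of the canonical start at 7 of 8 members, all but Socs7. This held for 34.5% of protein-coding genes, with or without a start-site interval. At Socs4 the neighbour was Wdhd1, a protein-coding gene that encodes a replication protein, with 22 annotated starts between positions -104 and -25. At the other 6 genes the neighbours were long noncoding RNAs. They were 5730420D15Rik at Socs2, Gm57366 at Socs3, Gm30510 at Socs5, Gm58875 at Socs6, Gm67592 at Cish, and Gm61077 and Gm46563 at Socs1. The nearest starts were those of Wdhd1 at -25 and Gm58875 at -57. ATAC-seq carries no strand, so openness at these 7 start sites cannot be assigned to the SOCS gene alone.

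Away from the start sites, intervals were weak, at the SOCS genes as in the list as a whole. The 91 intervals outside 1 kb of the canonical starts ran from 1.70-fold to 14.1-fold with a median of 2.42-fold, against 2.49-fold for the 262749 intervals of the list outside 1 kb of protein-coding starts. A fold enrichment of at least 5 was reached by 13 of the 91 (14.29%), against 21.14% of those intervals. The 91 leave out only intervals near a member's own start, not those near other protein-coding starts, and 42 of them belonged to Socs6. A start of another gene lay in 3 of the 91, such as the 2.55-fold interval upstream of Socs1, which covers the start of Tnp2, a gene of the maturing sperm nucleus.

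Among the cytokine-induced members, the strongest such interval was 6.22-fold at position 31232 of Socs2, downstream of the canonical transcript and inside the gene record. It was 4.52-fold at position 7210 of Cish, downstream, 2.75-fold at position -2830 of Socs3 and 2.55-fold at position -2264 of Socs1. Cish had in addition an upstream interval of 10.3-fold with its highest summit at position -1590, whose edge came within 1 kb of the start. Apart from that interval, the chromatin around Cish, Socs1 and Socs3 held 4 intervals outside the start-site intervals, between 2.55-fold and 4.52-fold.

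The highest distal values of the family lay at larger genes, which also held more intervals outside 1 kb of the start. There were 42 at Socs6, 18 at Socs7 and 13 at Socs5, against 8 at Socs2, 2 at Cish and 1 each at Socs1 and Socs3. The medians of these intervals did not rise with gene size. They were 2.36-fold at Socs6, 2.78-fold at Socs7 and 2.29-fold at Socs5, against 4.26-fold at Socs2, 3.54-fold at Cish, 2.75-fold at Socs3 and 2.55-fold at Socs1. Socs6 had 14.1-fold at position -11146, upstream of the canonical start but inside the gene record, and 10.0-fold at position 123680. Socs7 had 9.95-fold at position 36475, just downstream of the transcript, and 9.10-fold at position 21038 in intron 7. Socs5 had 8.77-fold at position 17986 in intron 2. Socs4, although larger than Cish, Socs1 and Socs3, had at most 2.62-fold at position 8513 in intron 1. Its start-site interval was 20.2 times stronger.

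**Figure D4:**
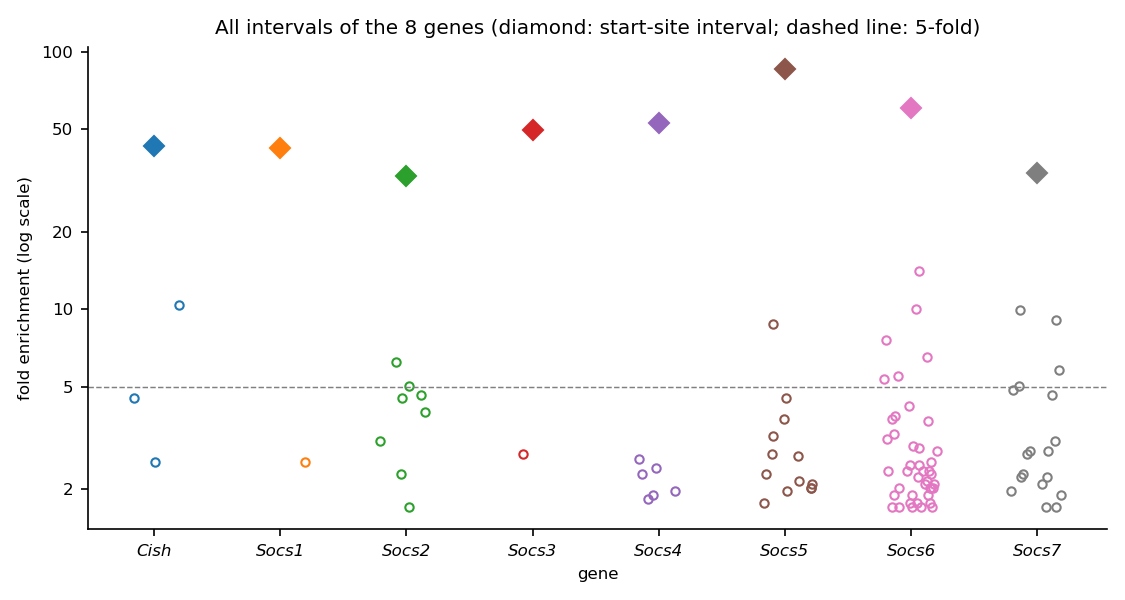
Fold enrichment at the highest summit (y axis, log scale) of all 100 intervals of the SOCS genes (x axis); diamonds are start-site intervals, open circles the other intervals, spread sideways for legibility, and the dashed line marks 5-fold. Every diamond lies at 32.8-fold or above, and the highest open circle is at 14.1-fold in Socs6.

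The number of intervals differed widely between the genes. There were 43 at Socs6, 19 at Socs7, 14 at Socs5, 9 at Socs2, 7 at Socs4, 4 at Cish and 2 each at Socs1 and Socs3. The Socs6 record spans 262288 bp, while its canonical transcript spans 29203 bp, and 11 of the 43 intervals overlapped the canonical transcript with its 3 kb upstream. Per 10 kb, the family ran from 1.62 intervals at Socs6 to 4.83 at Socs7, with a protein-coding median of 1.86.

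In the small genes, intervals reached over nearly the whole gene, but at low fold in the coding exons. Coverage counts an interval of any strength. Summits in coding exons were between 3.08-fold and 4.19-fold at Cish and 4.65-fold at Socs3, and at Socs1 no summit of the start-site interval lay in coding sequence. Intervals covered all of the canonical transcript of Socs1, 96.38% of that of Cish and 95.9% of that of Socs3, and all of the coding sequence of each. These transcripts span 3769 bp, 6759 bp and 3219 bp, so the start-site interval alone spanned most of each. Of the assigned stretch, intervals covered 94.31% at Socs1, 93.81% at Cish and 83.3% at Socs3, with a protein-coding median of 16.68%. That median was taken over genes of all lengths, with or without an interval. Socs6, with 10.08%, lay under that median. The coding sequence of Socs1 and Socs3 lies in 1 exon, and that of Cish in 3. The coding sequence of Socs5, also in 1 exon, was covered to 93.72%, far from the start site, where the interval with its highest summit in that coding sequence reached 4.52-fold. That of Socs4 was covered to 10.55% and that of Socs6 to 0.0%. Socs2, with 42.49%, and Socs7, with 58.49% over 9 coding exons, were intermediate.

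The rest of the pathway is given for comparison. All 42 genes of the lists of kinases, STATs, receptors, SOCS-box ligase partners and other inhibitors had a start-site interval, against 75.8% of protein-coding genes. The 4 kinases had a median of 53.55-fold, from 23.83-fold at Jak3, the kinase of lymphoid cytokine receptors, to 64.55-fold at Tyk2, which serves interferon receptors, and 3 lay above the protein-coding median. The 7 STATs had a median of 33.19-fold, from 4.12-fold at Stat4, a factor of lymphoid cells, to 68.6-fold at Stat3, the factor of IL-6 signaling, and 4 lay above it. The lowest STAT value was thus far under the lowest SOCS value, 32.8-fold.

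The 16 receptors had a median of 37.91-fold, from 3.80-fold at Lepr, the leptin receptor, to 84.9-fold at Ifnar1, a chain of the type I interferon receptor, and 10 lay above the protein-coding median. All 4 ligase partners lay above it, from 32.28-fold at Cul5, the cullin scaffold, to 83.15-fold at Eloc, elongin C. Of the 11 other inhibitors 7 lay above it, from 5.11-fold at Ptpn6, a phosphatase of blood cells, to 63.9-fold at Ptpn2, a phosphatase that acts on JAKs. The SOCS genes and the ligase partners were the lists with every member above the median. A match of the STAT palindrome within 200 bases of the highest summit occurred at 0 of 4 kinases, 0 of 7 STATs, 2 of 16 receptors, 1 of 4 ligase partners and 1 of 11 other inhibitors, against 8.01% of protein-coding start-site intervals. Counts this small do not set these lists apart from that share.

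**Figure D5:**
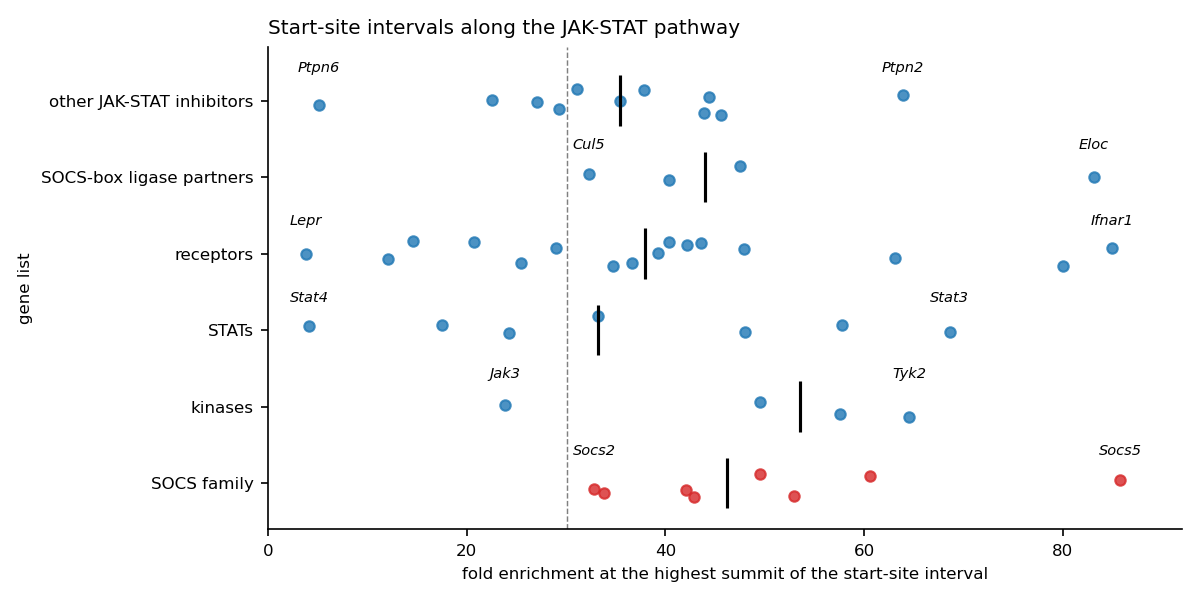
Fold enrichment at the highest summit of the start-site interval (x axis) for the SOCS family (red) and 5 lists of JAK-STAT pathway genes (blue), 1 point per gene, spread vertically for legibility; black bars are list medians, the dashed line is the protein-coding median of 30.05-fold, and the lowest and highest gene of each list are named. The SOCS genes lie between 32.8-fold and 85.8-fold, while kinases, STATs, receptors and other inhibitors reach below the dashed line.

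The tissue was checked by markers of kidney cells. A start-site interval was present at 8 of 9 proximal tubule genes, all 6 of the thick limb and distal tubule, all 5 of the collecting duct, and all 4 each of podocytes, endothelium and stroma, against 75.8% of protein-coding genes. Of genes of other organs, 4 of 6 had one as well. The medians of the lists were 15.12-fold for the proximal tubule, 11.85-fold for the thick limb and distal tubule, 17.02-fold for the collecting duct, 7.14-fold for podocytes, 8.28-fold for stroma, 3.57-fold for endothelium and 2.23-fold for other organs, with genes lacking an interval set to 0. All of these medians lay under the median of protein-coding start-site intervals, 30.05-fold, which leaves out genes without an interval. A value above that median is therefore not a mark of kidney genes. The lists overlapped in level, since other organs reached 3.40-fold while Pecam1 of the endothelium had 2.03-fold and Nphs1 of podocytes 3.14-fold. Among immune genes, Csf1r had 27.6-fold, Cd74 25.01-fold and Ptprc 1.90-fold, and Cd3e and Itgam had no start-site interval. The part of each cell type in the openness of the SOCS genes was not tested.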

How the data were processed

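Nuclei of mouse kidney cortex were profiled by ATAC-seq, and libraries were grouped as WT (n = 3) or Acly cKO (n = 3) by their labels. Read trimming by the authors used fastp and alignment to mm39 used Bowtie2 2.3.4.3. They removed duplicates and reads without a unique position, called peaks with MACS3 3.0.0 at a q of 0.05 and removed blacklisted regions with BEDTools 2.29.1. Reads were shifted and extended before calling, which smooths summit positions. Whether the shift centred them on the Tn5 cut could not be checked here, so summit positions may carry an offset. For each summit the deposited list holds a fold enrichment, a linear ratio over the caller's background, and a -log10 q, both from 1 call on pooled libraries, so pooling hides differences between libraries. Summit positions were read from the summit offset column. The unfiltered list, with the same -log10 q, served as a check: the filter removed no summit inside the stretches of the SOCS genes (267 before and 267 after). Summits of assigned intervals that lay beyond the stretches were not part of this check, but are included in the 280 summits given further below.

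Rows were merged into distinct intervals, valued at the summit with the highest -log10 q, and placed on GENCODE M39. Ranking by fold or by q gave the same order, and no fold carried more than 1 q. Folds rose in equal steps of 0.0655, as with 1 background for all summits, so fold held no correction for local background. Each member was set beside all protein-coding genes. Motifs were searched on both strands. Named genes are the 8 members and, per pathway list, the highest, the lowest and any gene with no start-site interval. Members and lists were chosen with earlier results of these data known. Of the immune markers, 1 immune marker is not reported here. Scripts were tested on simulated data. Python 3.11.15, numpy 2.4.6, pandas 2.3.3, pysam 0.24.0 and matplotlib 3.10.9 were used.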

Additional observations from a re-analysis of the deposited data

How the results depend on the processing

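The number of intervals at the SOCS genes depended most on the threshold. It was 100 as reported, 55 at a q under 1e-05, 22 at a fold enrichment of at least 5, 280 when summits were counted in place of intervals, and 66 with the canonical transcript in place of the gene record, an alternative added after the data were seen, in which the shorter stretch of Socs6 removed most of the difference. A q under 0.01, 10 kb on either side, no upstream sequence and a highest summit inside the stretch gave 87, 132, 94 and 98. Members with a TTCNNNGAA match near the start rose from 2 to 5 in the window from 1000 bases before to 500 after, where 36.3% of protein-coding genes had one, and to 8 in the whole start-site interval (55.3%). With 4 free bases between the arms it was 2 (6.82%), and with RefSeq starts, also added, it was 2 of the 4 members that had such a start, Socs3 and Cish, with no share over protein-coding genes computed. With the start of the gene record, 7 members had a start-site interval (74.3% of protein-coding genes), all but Socs6. The 8 members above the protein-coding median stayed at 8 with summits within 1 kb. The count against all protein-coding genes was also 8, but genes without an interval can only lower the median, so this could not differ. The strongest fold enrichment of each member was the same with 10 kb on either side. Within 1 kb of the start it had to be the same, since the start-site interval was already the strongest of each member. Ranking by q or by the highest fold could not differ, since fold and q give the same order. No paired analysis was possible because the pooled call holds no column for a library, and for the same reason no replicate could be left out. Depth per library is unknown, so the faintest intervals have no known detection limit.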
